A study of Mus musculus with 29 samples.

Results

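The 5 genes described here, Csf1r, Csf1, Csf2ra, Csf2rb and Csf3r, belong to the colony-stimulating factor system and code for receptors or receptor subunits and, in Csf1, a ligand. They were chosen by name, with earlier results of these data known. All 5 were found in each of 3 gene sets, of 19704 genes in the young brain tables, 27514 in the aged brain tables and 16623 in the blood tables. They were followed through 106977 cells of C57BL/6J mice, 55268 from brain and 51709 from blood, in 29 Drop-seq libraries, made by sealing each cell in a droplet with a bead whose barcode marks its transcripts. Stroke mice had a middle cerebral artery blocked for a limited time, and control mice a sham operation. Each of the 18 brain libraries pooled 4 to 5 hemispheres and held cells sorted as microglia, CD45-high leukocytes or Ly6C-high endothelial cells. Each of the 11 blood libraries pooled leukocytes from 2 mice. Young animals were males of 8 to 10 weeks: 4 brain libraries were sham (day 2), 4 were stroke taken on day 2 and 4 stroke taken on day 14, and for blood these numbers were 4, 4 and 3. Aged animals of 17 to 20 months and both sexes gave brain libraries alone, 2 sham (day 2), 3 stroke (day 2) and 1 stroke (day 14). No day 14 sham was among the libraries analysed here, so both time points were compared with the same day 2 shams, and the day 2 and day 14 differences share those libraries. Neurons and astrocytes were outside the sort, so their ligands were not measured.

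Csf1r is the receptor tyrosine kinase for the ligand Csf1 and for a further ligand, Il34, and microglia and tissue macrophages need its signal to survive. Csf2ra and Csf2rb are the ligand-specific and the shared subunit of the receptor for Csf2, the granulocyte-macrophage factor, and Csf2rb also serves the receptors for interleukins 3 and 5. Csf3r is the receptor for Csf3, the granulocyte factor, which drives neutrophil production and release from the bone marrow. In the brain the system is best known for keeping microglia alive and for guiding the myeloid cells that enter after injury.

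In the mm10 assembly (GRCm38, GENCODE M21 gene bounds) Csf1 lies on the minus strand of chromosome 3 from 107741048 to 107760469, and Csf2ra on the minus strand of chromosome 19 from 61223957 to 61228429. Csf2rb lies on the plus strand of chromosome 15 from 78325752 to 78353847, next to its near copy Csf2rb2 on the minus strand from 78282507 to 78305721, and Csf3r on the plus strand of chromosome 4 from 126024550 to 126044440. Csf2rb and Csf2rb2 shared 892 stretches of 50 bases between their longest transcripts, 18.4% of those of Csf2rb, but 0 within the last 500 bases of either, where 3′ tags fall. The promoter of Csf1 is shown because Csf1 was the member that moved in most cell types. It is the 250 bases before the gene's start in RefSeq (GRCm38.p6, chr3:107760470-107760719, minus strand), with its 1 match to the NF-kB motif in capitals.

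Csf1 promoter: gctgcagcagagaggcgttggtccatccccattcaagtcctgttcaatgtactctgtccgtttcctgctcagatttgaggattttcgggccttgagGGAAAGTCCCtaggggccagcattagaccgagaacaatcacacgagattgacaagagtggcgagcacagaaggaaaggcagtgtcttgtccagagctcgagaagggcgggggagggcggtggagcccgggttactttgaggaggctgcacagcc

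The match spans positions -154 to -145 from the start and was found by searching both strands. An NF-kB match stood in 3.90% of 32851 RefSeq promoters of the same length. The other 3 motifs searched were PU.1 (AGGAAGT, in 7.69% of promoters), AP-1 (TGANTCA, in 6.75%) and C/EBP (TTGCNNAA, in 9.56%), and these letters were not in the Csf1 window. Promoters of 3 of the 5 members were in the table, and those of Csf3r and Csf2ra held none of the 4 motifs. Matches are descriptions of the letters and show no binding.

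Depth ran from 819438 to 5855047 counts per brain library and from 966914 to 5232662 per blood library, and the median cell held 321 to 1363 counts. Levels are CPM, counts per 1000000 of the counts summed over the cells of 1 authors' type in 1 library, for sums of at least 20 cells, so each value is 1 library. Types and subtypes are the authors' and were made from all genes, so differences between them are description and carry no test. The markers of each type led in its own cells for microglia, border-associated macrophages, endothelial cells, neutrophils, monocytes and lymphocytes. The cells coded dendritic scored higher on the monocyte markers (7.31 on the log2(CPM + 1) scale in brain) than on the dendritic markers (6.97). Cell barcodes were nearly all distinct, with at most 7 shared by any pair of libraries. Replicate 3 of young brain stroke at day 2 stood apart in microglia. It gave 58 of these cells and 26321 counts, and its summed level of 6 microglial markers was 817 CPM, where the young sham libraries ran from 14610 to 21335 CPM. Each member's fold change in microglia that is printed below and uses young day 2 libraries is given with and without it. The libraries of a group are separate pools, so p-values measure the spread between pools of mice.

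Across young shams each member had its own ranking of cell types. Csf1r was highest in microglia at 2885 ± 589.5 CPM (SD, n = 4). Border-associated macrophages followed at 885 ± 638 CPM, blood monocytes at 441 ± 130 CPM and monocyte-derived brain cells at 216 ± 162 CPM. The microglial range (2287 to 3680 CPM) did not overlap that of the next type, and every pair of neighbours below it overlapped. In 7627 endothelial cells of 18 libraries the Csf1r total was 0.000133 counts, where 3 counts would be 0.603 CPM, but with each cell's fraction rounded up to a whole count the mean of these libraries was 11.3 CPM. Blood B, T and NK cells averaged 0.0603, 1.03 and 0.118 CPM over 11 libraries each, or 1.17, 3.05 and 0.627 CPM with fractions rounded up.

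Csf1 was highest in the pooled eosinophils and basophils of blood, at 939 and 569 CPM in 2 sham libraries, clear of all other types. That name is the authors': no marker list for these cells was scored, and of the lists that were, the neutrophil markers ranked highest in them (7.64 on the log2(CPM + 1) scale). Endothelial cells (45.2 ± 15.3 CPM), microglia (26.6 ± 11.4), blood neutrophils (25.5 ± 13.4) and brain granulocytes (20.1 ± 20.3 CPM) came next, with overlapping ranges (n = 4 each). Csf2ra was highest in 6 myeloid types, from 462 ± 59.0 CPM in monocyte-derived brain cells through 389 ± 67.1 in blood neutrophils to 281 ± 95.7 in border-associated macrophages, and every pair of neighbours among these 6 overlapped. Microglia were lower, at 120.4 ± 34.0 CPM, below the range of border-associated macrophages, and eosinophils and basophils were at 28.8 CPM (mean of 2 libraries). Csf2rb was highest in eosinophils and basophils (404 and 1521 CPM), then in blood neutrophils (515 ± 140 CPM) and brain granulocytes (408 ± 116 CPM). The granulocyte range did not reach that of blood monocytes (189 ± 51.1 CPM). Csf3r was highest in blood neutrophils (1555 ± 405 CPM) and brain granulocytes (1005 ± 571 CPM), whose ranges overlapped and lay above that of microglia (268 ± 151 CPM).

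**Figure D1:**
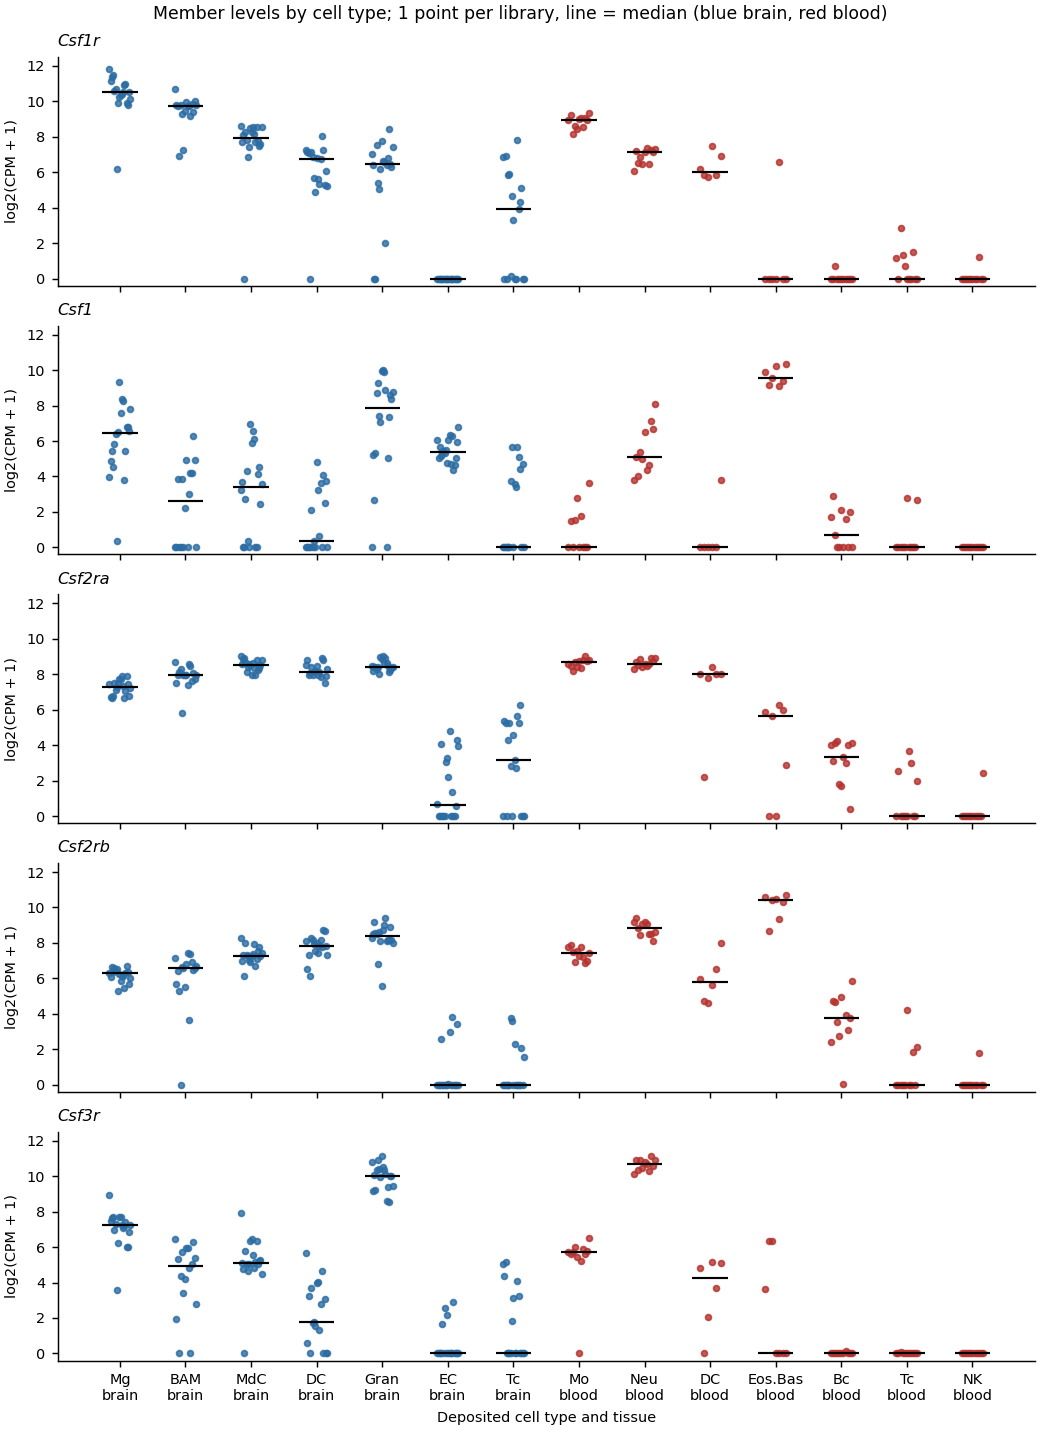
Level of each member by cell type over all libraries, as log2(CPM + 1) of summed counts; each point is 1 library with at least 20 cells of the type, young or aged, and the line is the median. Csf1r is led by microglia, Csf3r by blood neutrophils and brain granulocytes, and both Csf1 and Csf2rb by the eosinophils and basophils of blood.

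Microglial Csf1r was lower in every stroke library than in every sham library, at both times, but the difference did not pass the test. The 4 young shams held 3680, 2287, 2659 and 2914 CPM in replicate order, day 2 held 1543, 1632, 73.3 and 948 CPM, and day 14 held 1232, 1325, 1372 and 1502 CPM. No stroke library reached the lowest sham. The fitted log2 fold change was -1.23 ± 0.51 (SE) at day 2 (edgeR quasi-likelihood test, Benjamini-Hochberg adjusted p = 0.0833), a 2.34-fold lower level, and -0.62 ± 0.51 at day 14 (adjusted p = 0.423). Day 14 against day 2 gave 0.61 ± 0.51 (adjusted p = 0.546), and 0.26 (adjusted p = 0.547) without replicate 3 of day 2.

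The day 2 call depended on the scaling and the method, as given below, and on replicate 3 of day 2. Without it the value was -0.89 with an adjusted p of 0.0108, so the smaller difference passed the test. Its Csf1r total was 1.93 counts, and with each cell's fractional value rounded up to the next whole number its level was 343 CPM in place of 73.3 CPM. TMM, the scaling used, sets most genes near 0 between groups. The day 2 value was also called by DESeq2 (-1.46, adjusted p = 0.0113) and without TMM (-1.38), and day 14 without TMM gave -1.08 (adjusted p = 0.0912). Leaving out TMM moved the median of all genes in microglia from -0.05 to -0.22 at day 2 and from -0.04 to -0.49 at day 14. The summed microglial markers moved with Csf1r: 14610 to 21335 CPM in sham, 817 to 12466 CPM at day 2 and 9815 to 13704 CPM at day 14. Their part in the result was not tested.

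Of the 5 members tested in microglia, 3 passed the test at day 2 against sham, where 31.4% of all genes tested did. Csf1 and Csf2ra were higher and Csf3r was lower. At day 14 against sham 2 of 5 passed (15.2% of all genes), Csf1 and Csf2ra, both higher, and at day 14 against day 2 Csf1 alone passed (6.93% of all genes). All the pairs of comparisons share libraries, so their values are given side by side.

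Csf1 was the member with the largest change in microglia. The shams held 14.8, 28.0, 41.6 and 21.9 CPM, day 2 held 56.8, 81.9, 0.300 and 90.8 CPM, and day 14 held 644, 193, 336 and 305 CPM. All 4 day 14 libraries lay above every other library, and at day 2 replicate 3 was listed below the shams while the other 3 lay above them. Replicate 3 held 58 cells and 26321 counts, where 3 counts would give a level above every sham. It thus cannot be placed below them. With each cell's fraction rounded up the day 2 mean was 77.7 CPM in place of 57.4 CPM. Csf1 rose by 1.66 ± 0.46 on the log2 scale at day 2 (edgeR, adjusted p = 0.0162), a 3.15-fold change. At day 14 it rose by 4.28 ± 0.47 against sham (adjusted p = 4.93e-05), a 19.4-fold change, and by 2.62 ± 0.46 against day 2 (adjusted p = 0.00445). Without replicate 3 of day 2 the values were 1.75 at day 2 against sham (adjusted p = 0.0126) and 2.51 at day 14 against day 2 (adjusted p = 0.00768), both still called. Without replicate 4 of day 2 the day 2 value was 1.38 and missed the threshold (adjusted p = 0.0722). Both day 14 calls held in all alternatives run.

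Csf2ra, the ligand-specific subunit, was at 171, 103, 98.1 and 110 CPM in sham microglia, at 179, 138, 154 and 183 CPM at day 2 and at 212, 210.1, 236 and 160 CPM at day 14. Sham replicate 1 overlapped the stroke libraries and the other 3 shams lay below all of them. It rose by 1.24 ± 0.22 at day 14 (edgeR, adjusted p = 0.00225) and by 0.63 ± 0.23 at day 2 (adjusted p = 0.0485). The day 2 call was kept in 4 of 12 fits with 1 library left out (without sham replicate 1, day 2 replicate 2 or 3, or day 14 replicate 4). Over the 12 fits the value ran from 0.48 to 0.79 and the adjusted p from 0.0235 to 0.174, without the high sham replicate 1 the value was 0.79, and without day 2 replicate 3 it was 0.68 (adjusted p = 0.0455). It was also lost with DESeq2 and 4 other settings, while the day 14 call held in all that were run. Csf2rb, the shared subunit, was at 80.6 ± 13.5 CPM in sham, 77.2 ± 26.1 at day 2 and 67.7 ± 7.68 CPM at day 14 (n = 4 each), and passed in none of the 3 comparisons.

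Csf3r in sham microglia was at 494, 176, 200 and 202 CPM, against 125, 156, 10.8 and 72.9 CPM at day 2 and 207, 204, 148 and 136 CPM at day 14. The day 2 libraries lay below every sham, and day 14 overlapped the shams. It fell by 1.13 ± 0.40 at day 2 (edgeR, adjusted p = 0.0478), and at day 14 the value was -0.14 ± 0.38 (adjusted p = 0.836). The day 2 call was lost with cells of at least 500 counts (-1.06, adjusted p = 0.0514) and kept in 3 of 12 leave-one-out fits (without day 2 replicate 2, or day 14 replicate 2 or 4). Without the high sham replicate 1 the value was -0.73 (adjusted p = 0.139), and without day 2 replicate 3 it was -1.004 (adjusted p = 0.0501). Markers of neutrophils, the cells with the most Csf3r, summed to at most 98.7 CPM in any young microglial sum. The part of neutrophils in the microglial Csf3r values was not tested.

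**Figure D2:**
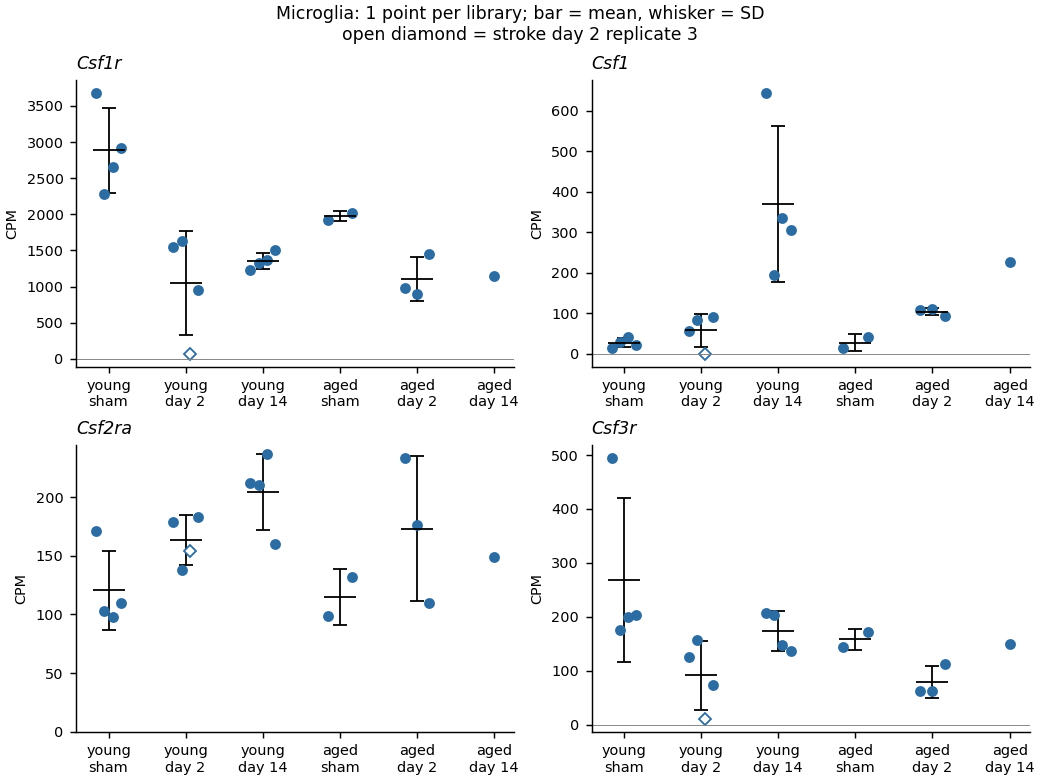
Level of Csf1r, Csf1, Csf2ra and Csf3r in microglia, in CPM, for young and aged groups; each point is 1 library, the bar is the group mean, the whisker the SD and the open diamond day 2 replicate 3. Csf1 sits at 14.8 to 41.6 CPM in young shams and at 193 to 644 CPM at day 14, while Csf1r sits at 2287 to 3680 CPM in shams and at 1232 to 1502 CPM at day 14.

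Of the authors' 8 microglial subtypes, known only by number, those highest in Csf1r were lowest in Csf1 when groups were pooled. Pooled over brain libraries, Csf1r was highest in Mg1 (2872 CPM) and Mg2 (2554 CPM) and lowest in Mg4 (765 CPM), whereas Csf1 was lowest in Mg1 (12.1 CPM) and Mg2 (29.2 CPM) and highest in Mg7 (438 CPM), Mg3 (380.0 CPM) and Mg6 (321 CPM). Mg1 and Mg2 made up 53.6% and 37.2% of young sham microglia. Mg4 and Mg5 made up 38.4% and 33.8% at day 2, and Mg3 made up 66.1% at day 14. Within Mg1, Csf1r was at 3159 CPM in sham, 3082 at day 2 and 2748 CPM at day 14. Within Mg2 it was at 2756, 2192 and 2531 CPM and within Mg4 at 2068, 816 and 1079 CPM. Within Mg3 it was at 2220, 1375 and 1245 CPM, and within Mg5 at 2329, 1123 and 1209 CPM in the same order. Csf1 within Mg1 was at 10.4, 29.3 and 11.1 CPM, and within Mg3 at 190, 230.4 and 434 CPM, where the sham value rests on 9.70 counts in 93 cells. Within day 14 alone Csf1 ran from 11.1 CPM in Mg1 and 27.5 CPM in Mg2 to 456 CPM in Mg6 and 478 CPM in Mg7. The subtypes were clustered on genes that include these 2, so the split is a description of the clusters. Pooled over groups, Csf2ra and Csf2rb varied less, from 122 to 210 CPM and from 49.0 to 86.6 CPM over the 8 subtypes. Csf3r was at 287, 340.4 and 247 CPM in Mg1, in the order sham, day 2 and day 14. It was at 286, 255 and 209 CPM in Mg2 and at 200.3, 69.3 and 93.6 CPM in Mg4. Young Mg4 had only 124 cells in sham and 52 at day 14, and young Mg5 had 116 and 113.

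**Figure D3:**
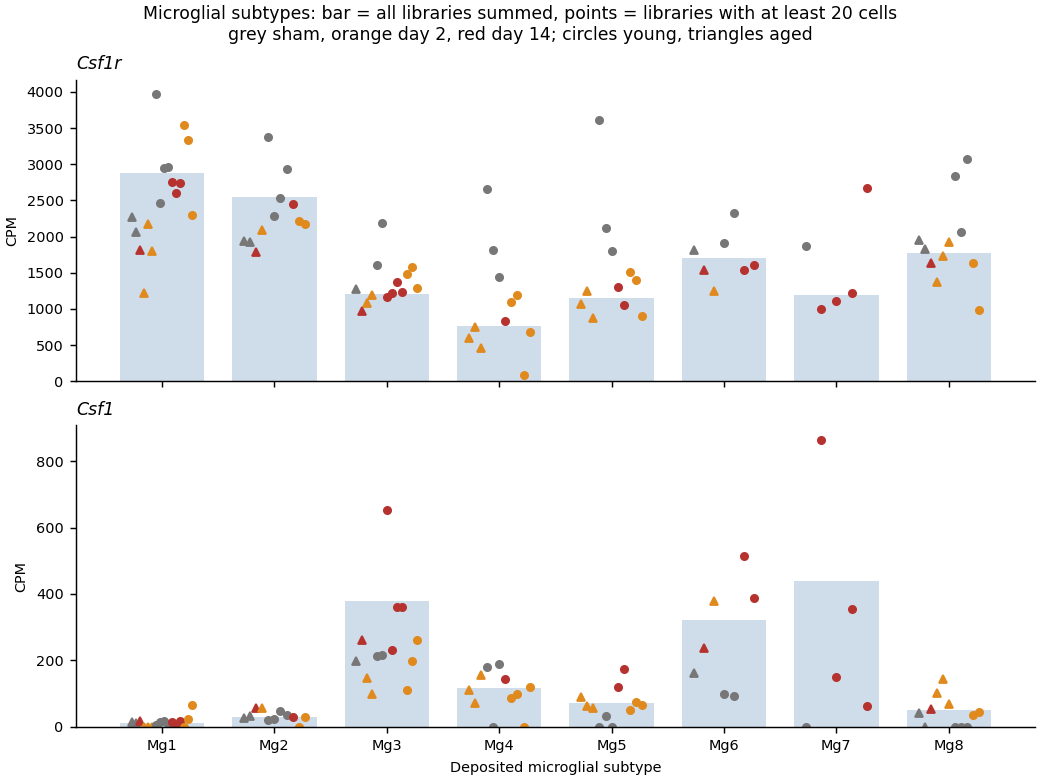
Csf1r and Csf1 in the 8 microglial subtypes of the authors, in CPM; bars are the counts of all brain libraries summed, and points are single libraries with at least 20 cells, in grey for sham, orange for day 2 and red for day 14, as circles for young and triangles for aged mice. Csf1r leads in Mg1 and Mg2, where Csf1 is at 12.1 and 29.2 CPM.

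In cell types other than microglia Csf1r passed no test between stroke and sham either. Of 2 members tested in border-associated macrophages none passed in any of 3 comparisons (2.67%, 0.0762% and 0.838% of all genes for day 2 against sham, day 14 against sham and day 14 against day 2). Their Csf1r was at 885 ± 638 CPM in sham, 598 ± 318 at day 2 and 822 ± 174 CPM at day 14 (n = 4 each), with the subtype BAM1 at 1225 CPM pooled and the other 4 between 509 and 794 CPM. Of 3 members tested in brain dendritic cells none passed either (1.01%, 1.53% and 0.893% of all genes in the same order). In blood monocytes Csf1r was at 441 ± 130 CPM in sham, 446 ± 91.9 at day 2 and 556 ± 77.7 CPM at day 14 (n = 4, 4 and 3). None of 4 members passed there in any comparison. No gene at all was called at day 2 in that fit (0%), with 189 at an unadjusted p under 0.05 and 0 by DESeq2, and 0.254% and 0.537% were called in the other 2 comparisons. Over the other settings run, 0 to 13 genes were called at day 2. Pooled over groups, the monocyte subtype Mo3 held 768 CPM of Csf1r and the other 4 held 346 to 469 CPM.

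Monocyte-derived brain cells were compared with blood monocytes at stroke day 2, where each tissue has 4 libraries of its own. Of 4 members tested, Csf1r passed, where 24.7% of all genes did. The brain cells held 314, 222, 114 and 174 CPM of Csf1r and the blood cells 353, 519, 530 and 381 CPM, with no overlap. The brain level was lower by a log2 fold change of -0.84 ± 0.27 (edgeR, adjusted p = 0.0396). The call was kept in 2 of 8 leave-one-out fits (without brain replicate 1 or 2), with values from -1.06 to -0.62 and adjusted p up to 0.147, and it was lost under 3 of the other settings. Brain and blood cells were isolated by different protocols, and tissue and protocol cannot be told apart. Csf2ra was at 353 ± 61.6 CPM in brain and 388 ± 62.0 in blood, and Csf2rb at 173 ± 55.3 and 175 ± 30.6 CPM. Neither passed.

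In brain granulocytes Csf1 rose at both times. The 4 shams held 0, 36.6, 5.37 and 38.5 CPM, day 2 held 415, 624.6, 167 and 133 CPM, and day 14 held 992, 1038, 949 and 463 CPM. Both stroke groups lay above all shams. Of 4 members tested only Csf1 passed against sham, by 3.54 ± 0.73 on the log2 scale at day 2 (edgeR, adjusted p = 0.00475; 8.35% of all genes called) and by 4.86 ± 0.67 at day 14 (adjusted p = 3.21e-05; 26.1%). The folds were 11.6 and 29.0. They rest on few sham counts, since the shams together held 6.61 counts of Csf1. Their pooled level was 22.8 CPM, where 3 counts would be 10.3 CPM. Both calls held in every leave-one-out fit. A fit of only sham and day 2 gave no value for Csf1. Its day 2 difference was thus tested only in fits that also held day 14, where it was highest. The day 14 difference too was tested only in fits that held this high group. It was also called with no filter on low counts. Day 14 against day 2 gave 1.32 ± 0.53 and was not called (adjusted p = 0.184; none of 4 members, 4.23% of all genes). It was called without day 2 replicate 2 (1.82, adjusted p = 0.0493). The sham total of 0 in replicate 1 rests on few cells, since 3 counts there would be 50.2 CPM.

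The granulocyte subtypes differed widely in Csf1. Subtypes had few cells in some groups, so levels are given within groups. Gran1 had 16 cells at day 14 and Gran2 had 14 in sham, and their levels there are not given. No Gran3 cells were listed in young shams. In sham Gran1 held 25.0 CPM. At day 2 Gran1 was listed at 0 in 124 cells, where 3 counts would be 33.2 CPM, Gran2 held 235 CPM and Gran3 held 2444 CPM in 29 cells. At day 14 Gran2 held 496 CPM and Gran3 held 1981 CPM in 93 cells. Gran1 was 82.6% of sham granulocytes and 4.41% of those at day 14, when Gran2 was 57.9% and Gran3 25.6%. The summed neutrophil markers fell while Csf1 rose, from 224429 to 294791 CPM in sham to 110812 to 205021 CPM at day 2. At day 14 they were at 52779 to 69567 CPM, when 5 of the 6 markers were detected. Monocyte markers summed to 676 to 2593 CPM in sham and 268 to 932 CPM at day 14, and the part of either list in the result was not tested.

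In blood neutrophils Csf1 rose and Csf2rb fell at day 14. Csf1 was at 13.1, 33.2, 15.3 and 40.4 CPM in sham and at 30.1, 88.7, 19.9 and 23.8 CPM at day 2, with overlap, and at 139, 102 and 276 CPM at day 14, above every earlier library. Of 5 members tested 2 passed at day 14 against sham (5.99% of all genes), Csf1, which rose by 2.58 ± 0.43 (edgeR, adjusted p = 0.00284), and Csf2rb, which fell by 0.94 ± 0.24 (adjusted p = 0.0263). The same members passed against day 2 (4.69% of all genes), Csf1 by 1.75 ± 0.40 (adjusted p = 0.0194) and Csf2rb by -0.86 ± 0.23 (adjusted p = 0.0471). No member and no gene passed at day 2 against sham (0%, with 209 genes at an unadjusted p under 0.05 and 0 by DESeq2), where the Csf1 value was 0.83 ± 0.42 and that of Csf2rb -0.08 ± 0.21. Over the other settings run, 0 to 32 genes were called at day 2 against sham. Csf1 against day 2 was lost without day 2 replicate 1 (1.67, adjusted p = 0.0752), day 14 replicate 1 (1.85, 0.0561) or day 14 replicate 3 (1.37, 0.133). With cells of at least 500 counts alone it was lost in both comparisons, at 1.77 against sham (adjusted p = 0.0991) and 1.30 against day 2 (adjusted p = 0.239).

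Neutrophil Csf2rb was at 571, 678, 457 and 355 CPM in sham, 541, 580, 530 and 360 CPM at day 2 and 360, 280 and 396 CPM at day 14. The groups overlapped on the CPM scale. Both calls were lost with cells of at least 500 counts, at -0.89 (adjusted p = 0.0633) and -0.82 (adjusted p = 0.0990), and without TMM. Without TMM the values were -0.58 against sham (adjusted p = 0.143) and -0.53 against day 2 (adjusted p = 0.202), and neither was called. In the comparison with sham the median of all genes was 0.02 with TMM and 0.36 without. The call against sham was lost in 5 of 11 leave-one-out fits (without sham replicate 1 or 2 or any day 14 library) and that against day 2 in 7 of 11 (kept without sham replicate 1, 2 or 4 or day 2 replicate 4), with values from -1.09 to -0.81 and from -0.96 to -0.74. Neu3 was 5.23% of neutrophils in sham, 5.70% at day 2 and 72.2% at day 14. Within groups, in the order sham, day 2 and day 14, Csf1 was at 39.0, 124 and 185 CPM in Neu3, at 26.9, 38.8 and 98.4 CPM in Neu1 and at 20.97, 58.2 and 169 CPM in Neu5. Csf1 was thus higher at day 14 within each of these 3 subtypes, summed over libraries and without a test. Csf2rb in the same order was at 456, 392 and 360 CPM in Neu3, 567, 534 and 445 CPM in Neu1 and 525, 487 and 353 CPM in Neu5. The Neu1 values at day 14 rest on 94 cells. Levels within Neu2, which made up 41.9% of neutrophils in sham, Neu4 and Neu6 are not given here. Neutrophil markers summed to 196514 to 304041 CPM in sham and 109878 to 189719 CPM at day 14, and their part in these differences was not tested.

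The granulocyte-macrophage receptor subunits passed no other test. Csf2ra in brain granulocytes was at 349, 284, 337 and 342 CPM in sham and at 467, 519, 400.1 and 479 CPM at day 14, without overlap, yet the fitted difference did not pass (adjusted p = 0.856). In monocyte-derived brain cells Csf2ra was at 462 ± 59.0 CPM in sham, 353 ± 61.6 at day 2 and 329 ± 62.1 CPM at day 14, and Csf2rb at 165 ± 104, 173 ± 55.3 and 172 ± 54.6 CPM (n = 4 each). Csf1r in the same cells was at 216 ± 162, 206 ± 84.6 and 331 ± 43.5 CPM, or 330.7, 243 and 377 CPM with each cell's fraction rounded up, and sham replicate 4, the smallest with 43 cells, was listed at 0.

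Set side by side at stroke day 2, brain granulocytes held more Csf1 than blood neutrophils, 335 ± 230 against 40.6 ± 32.3 CPM (n = 4 each), with no overlap. The log2 fold change was 2.77 ± 0.53 (edgeR, adjusted p = 0.00255), a 6.83-fold difference, and it was kept in all 8 leave-one-out fits and all other settings run. It was the only member of 5 to pass, where 9.16% of all genes did. Brain and blood cells came from different isolation protocols, so tissue and protocol cannot be told apart. Eosinophils and basophils have a type of their own in blood, with 752 and 1184 CPM of Csf1 in 2 libraries at stroke day 2, and none among the brain types, and their part in the difference was not tested. Csf3r was at 1392 ± 383 and 1532 ± 235 CPM and Csf2ra at 353 ± 104 and 362 ± 24.8 CPM in brain and blood, and neither passed. Csf2rb was at 287 ± 129 CPM in brain and 503 ± 97.6 CPM in blood and did not pass. With no filter on low counts it was called (-1.39, edgeR, adjusted p = 0.0474).

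Monocyte-derived brain cells held little Csf1 until day 14. Shams were at 8.41, 11.7, 0 and 0 CPM, with 3 counts worth 74.2 and 164 CPM in the last pair, day 2 at 5.73, 18.6, 0.263 and 0.000515 CPM, and day 14 at 123, 58.0, 92.8 and 68.6 CPM. All day 14 libraries lay above all others. Csf1 was the only member of 5 to pass, at day 14 against day 2 (1.79% of all genes), where it rose by 3.89 ± 0.81 (edgeR, adjusted p = 0.0218). The shams together held only 1.62 counts (pooled level 7.09 CPM), where day 14 was at 98.2 CPM pooled. With both totals rounded to whole counts, 2 in the shams, the ratio was 11.2 with a 95% counting interval of 3.09 to 93.0. That comparison was not called (3.69 ± 1.35, adjusted p = 0.146; none of 5 members, 5.15% of all genes), but was with fractions rounded up (3.85, adjusted p = 0.00774), in a fit of only those groups (3.48, adjusted p = 0.00621) and when day 2 replicate 2 was left out (3.61, adjusted p = 0.0469). Neither was day 2 against sham called (-0.21 ± 1.76, none of 5, 6.71%). A fit of only sham and day 2 gave no value for Csf1. It was thus tested in these cells only in fits that held day 14, where it was highest. The call against day 2 was lost without day 2 replicate 1 (3.90, adjusted p = 0.0766), replicate 3 (3.45, 0.0510) or replicate 4 (3.51, 0.0558) and without day 14 replicate 1 (3.65, 0.0802). It was also lost in a fit of only those groups (3.92, adjusted p = 0.0750), while over all fits with 1 library left out the value ran from 3.45 to 5.28. At day 2 the subtype MdC6 held 30.8 CPM and the other 5 held 0.101 to 7.79 CPM, and at day 14 it held 173 CPM and the others 15.3 to 87.2 CPM. MdC6 was 34.0% of these cells at day 14 and 2.78% at day 2.

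**Figure D4:**
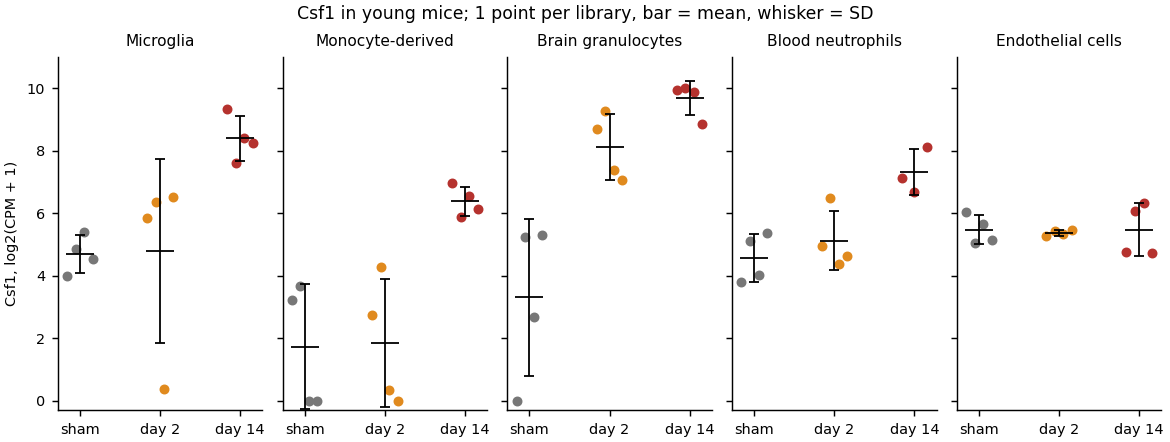
Csf1 as log2(CPM + 1) in 5 cell types of young mice by group; each point is 1 library, the bar is the mean and the whisker the SD on that scale. The day 14 libraries lie above all shams in 4 of the types, and the endothelial groups overlap.

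In endothelial cells, by contrast, Csf1 was at 45.2 ± 15.3 CPM in sham, 40.5 ± 2.65 at day 2 and 49.4 ± 28.0 CPM at day 14 (n = 4 each). The log2 fold changes were -0.10 ± 0.38, 0.12 ± 0.40 and 0.21 ± 0.36 for day 2 against sham, day 14 against sham and day 14 against day 2, and Csf1, the only member tested, passed in none (13.3%, 0% and 11.2% of all genes; for the 0%, 356 genes at an unadjusted p under 0.05 and 10 by DESeq2). The 95% interval of the day 14 difference from sham ran from -0.67 to 0.90 on the log2 scale. The subtype EC6 held 176 CPM of Csf1 pooled, and the other subtypes of over 100 cells held 28.7 to 56.7 CPM. Basophils (902 CPM, 194 cells) and eosinophils (669 CPM, 123 cells) were similar in pooled Csf1 but not in Csf2rb, at 1528 and 533 CPM, and in this mixed type no comparison of groups was run, since 2 of its groups had only 2 libraries of 20 cells or more.

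Csf3r, in the cells that hold most of it, passed no test. Brain granulocytes were at 1005 ± 571 CPM in sham, 1392 ± 383 at day 2 and 1523 ± 492 CPM at day 14 (n = 4 each), and blood neutrophils at 1555 ± 405, 1532 ± 235 and 1894 ± 375 CPM (n = 4, 4 and 3). By subtype pooled over groups, Neu6 held 305 CPM where the other 5 held 1147 to 1918 CPM, and Gran4, with 75 cells, held 85.2 CPM where the other 5 held 680.1 to 1301 CPM.

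In aged microglia Csf1 was higher and Csf1r and Csf3r lower in every day 2 stroke library than in both shams, without passing the test. Aged shams held 12.8 and 42.1 CPM of Csf1 and the 3 aged stroke libraries at day 2 held 109, 109 and 93.1 CPM, with no overlap. The log2 fold change was 1.82 ± 0.55 (edgeR, adjusted p = 0.1004), and with 1 library left out it ran from 1.32 to 2.97, never called. Csf1r was at 1923 and 2022 CPM in sham and at 977, 890.4 and 1451 CPM after stroke (-0.77 ± 0.64, adjusted p = 0.620), again without overlap. Csf3r gave -0.99 ± 0.51 (adjusted p = 0.362) and Csf2ra 0.66 ± 0.36 (adjusted p = 0.396). None of 5 members was called, where 2.3% of all genes were. The aged minus young difference of the stroke effect was 0.42 ± 0.82 for Csf1r, 0.11 ± 0.68 for Csf1, -0.02 ± 0.45 for Csf2ra and 0.12 ± 0.65 for Csf3r. None of 5 passed, and no gene did (0%, with 623 at an unadjusted p under 0.05, 1 by DESeq2 and 0 to 17 over all alternatives). With 2 aged shams the intervals are wide: for Csf1 the difference may lie between -1.23 and 1.44. The young libraries were all male and the aged ones of both sexes, so age and sex cannot be told apart. Without young day 2 replicate 3 the differences were 0.0741 for Csf1r, -0.0172 for Csf1, -0.0943 for Csf2ra and -0.0248 for Csf3r, and none passed.

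Of 33 other genes of the pathway, listed as ligands, receptors, signalling and feedback proteins and transcription factors, 22 were tested in microglia. At day 2 against sham 1 was higher and 6 were lower, 7 of 22 where 31.4% of all genes passed, with a median log2 fold change of -0.55 beside -0.05 over all genes. The 3 largest were Gab2, an adaptor of receptor tyrosine kinases (-1.85 ± 0.42, adjusted p = 0.00618), Il3ra, the interleukin 3 receptor subunit (1.83 ± 0.65, adjusted p = 0.0469), and Pik3cd, a kinase subunit (-1.14 ± 0.37, adjusted p = 0.0332; edgeR). Without day 2 replicate 3, a setting chosen after seeing the data, 0 were higher and 6 lower: Gab2 was at -1.80 (adjusted p = 0.0102), Pik3cd at -1.08 (adjusted p = 0.0377) and Il3ra lost its call (1.87, adjusted p = 0.0633). At day 14 against sham 2 were higher and none lower (15.2% of all genes passed), Il3ra (3.54 ± 0.57, adjusted p = 0.00101) and Tyrobp, a signalling adaptor of myeloid cells (1.51 ± 0.30, adjusted p = 0.00439), with a median of -0.06 beside -0.04. Without day 2 replicate 3 both were still called, and Inpp5d, a lipid phosphatase, was lower (-0.80, adjusted p = 0.0327). Il3ra remained a low gene, at 1.36 ± 1.06 CPM in sham and 12.7 ± 2.34 CPM at day 14. At day 14 against day 2 Gab2 (1.57 ± 0.42, adjusted p = 0.0398) and Ptpn6, a phosphatase (0.79 ± 0.20, adjusted p = 0.0327), were higher (6.93% of all genes passed). Without day 2 replicate 3 Ptpn6 was called (0.75, adjusted p = 0.0454) and Gab2 was not (1.51, adjusted p = 0.0553).

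Socs3, a feedback inhibitor of cytokine receptors, was the only one of 8 tested in brain granulocytes, higher by 1.43 ± 0.41 at both day 2 and day 14 against sham (edgeR, adjusted p = 0.0318 and 0.0161), where 8.35% and 26.1% of all genes passed. In blood neutrophils 2 of 20 were lower at day 14 against sham (5.99% of all genes passed). One was Csf2rb2, the near copy of Csf2rb that serves interleukin 3, which fell by 2.59 ± 0.51 (adjusted p = 0.00801) from 37.7 ± 15.4 to 7.44 ± 4.004 CPM. The other was Kit, the stem cell factor receptor, with a ratio of pooled levels of 26.6 (95% counting interval 7.25 to 221), though its sham libraries ran from 0 to 57.6 CPM. Csf2rb2 also fell by 2.07 ± 0.51 against day 2 (adjusted p = 0.0288), where it was 1 of 20 and 4.69% of all genes passed. In brain dendritic cells Kit alone of 19 was higher at day 14 (ratio 5.90, interval 1.99 to 28.9; 1.53% of all genes), and in endothelial cells Jak2 alone of 7 was lower at day 2 (-1.06 ± 0.30, adjusted p = 0.0277; 13.3% of all genes). None of 23 passed in monocyte-derived brain cells, where 6.71%, 5.15% and 1.79% of all genes did for day 2 against sham, day 14 against sham and day 14 against day 2. None of 21 passed in blood monocytes, where 0%, 0.254% and 0.537% did.

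Between tissues at stroke day 2, 3 of 22 listed genes were higher and 5 lower in monocyte-derived brain cells than in blood monocytes, 8 of 22 where 24.7% of all genes passed, led by Socs3 (2.40 ± 0.33, adjusted p = 0.000238), Flt3, a receptor of dendritic precursors (-2.13 ± 0.33, adjusted p = 0.000506), and Csf2rb2 (2.10 ± 0.46, adjusted p = 0.00543; edgeR). Of 13 tested in granulocytes against neutrophils, Cebpb, a transcription factor of myeloid cells, alone was higher in brain (1.91 ± 0.44, adjusted p = 0.0102), where 9.16% of all genes passed.

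**Figure D5:**
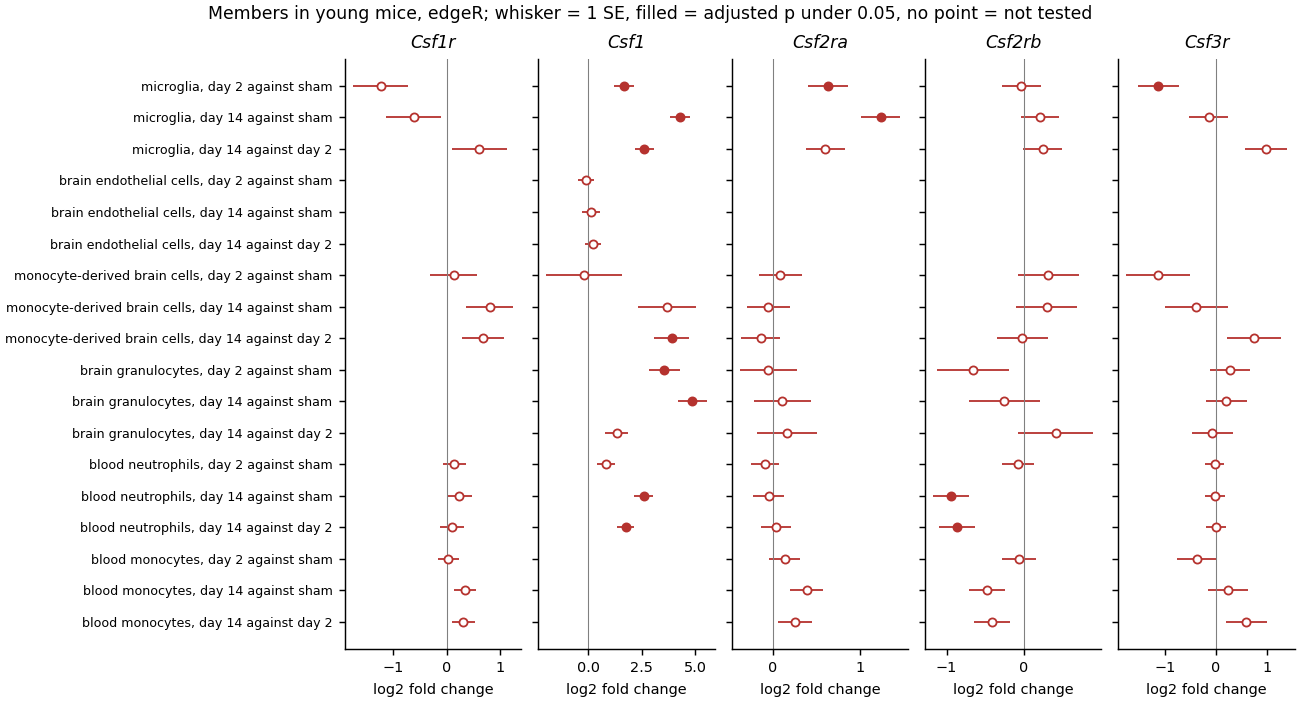
Log2 fold changes of the members in young mice by cell type and comparison, as fitted with edgeR; whiskers are 1 SE, filled points had an adjusted p under 0.05, members without a point were not tested, and each panel has its own x axis. Csf1 in microglia at day 14 (4.28) and in brain granulocytes at day 14 (4.86) lie farthest from 0.

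The genes with levels most like those of each member were ranked by Pearson's r of log2(CPM + 1) over 144 library-by-type sums of at least 50 cells from 17 types of young brain and blood, among 6648 genes. Sums share libraries and types, so r is a description. For Csf1r they were Cd300c2 (0.89), Mpeg1 (0.86), Slc11a1 (0.85), Cd68 (0.85) and Ctsb (0.82), and for Csf1 they were Kcnj2 (0.68), Slc40a1 (0.68), Cpd (0.67), Hcar2 (0.67) and Optn (0.66). Csf2ra was most like Lrrc25 (0.90), Alox5ap, Clec7a, Lyz2 and Spi1 (0.89 each), and Csf2rb most like Nfam1 (0.93), Spi1 and Pirb (0.90 each) and Cd300a (0.89). For Csf3r they were Cd33 (0.88), Hk3 (0.86), C5ar1 (0.85), Pilra (0.83) and Alox5 (0.83). Csf1 had no gene as close as those of the receptors.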

How the data were processed

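The authors deposited expected counts (estimated counts, not whole reads) per gene and cell, which in the deposited files are mostly fractions, with 0.320% to 4.81% of the non-zero values whole. Seurat and the mm10 assembly are named in the submitters' processing notes; the aligner and the counting step are not given in the sources used here. Cell types and subtypes are those the authors deposited. No cell was removed. Counts of all cells of 1 type in 1 library were summed (at least 20 cells), expressed as CPM (per 1000000), and for tests rounded to whole numbers. Types were tested with edgeR 4.0.16 (quasi-likelihood, TMM, filterByExpr; R 4.3.3), with sham, day 2 and day 14 in 1 fit, Benjamini-Hochberg adjustment over all genes tested and a threshold of 0.05. SE is the log2 fold change divided by the square root of F, and 95% intervals are 1.96 SE. DESeq2 1.42.0 was an alternative. Levels used numpy 2.4.6 and pandas 2.3.3, counting intervals scipy 1.17.1. The edgeR step was tested on simulated microglial sums. Scrublet (scanpy 1.11.5) marked 0 to 0.872% of cells per library, so doublets cannot be taken as found, and leaving the marked cells out was 1 alternative.

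Members are named throughout; of other pathway genes at most 3 per comparison were named, by size of change among those called, and 5 genes of most similar level per member, 1 of which is not reported here. The members and lists were chosen with earlier results of these data known. Counting intervals cover counting error only, and 3′ tags allow no comparison of levels between genes. A level of 0 is read against the level that 3 counts would give. Alternatives were scaling, filters, rounding, cells of at least 500 counts, only the compared groups, a replicate block and each library left out. With 28 comparisons, the aged day 14 library entered none. Blood sums of Il34, Csf2 and Csf3 were not analysed here.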

Additional observations from a re-analysis of the deposited data

Results flagged for a closer look

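Of 81 groups of 4 or more libraries examined, 6 held a library far from the rest, where chance gives about 1 in 20. Csf1 was low in brain granulocytes of day 14 replicate 4 (463 CPM) and high in blood neutrophils of day 2 replicate 2 (88.7 CPM). Csf1r was listed at 0 CPM in brain dendritic cells of sham replicate 4. Sham replicate 1 of the young brain was high in 3 values: Csf2ra (171 CPM) and Csf3r (494 CPM) in microglia and Csf3r in monocyte-derived cells (245 CPM). The microglial values bear on the day 2 calls of both genes, which are given without that library in the report or below.

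The stroke effect differed between day 2 and day 14 in 4 tests, with the log2 difference of the times being 2.62 for Csf1 in microglia, 3.89 for Csf1 in monocyte-derived brain cells, 1.75 for Csf1 in blood neutrophils and -0.86 for Csf2rb in blood neutrophils. Both times share the sham libraries, and the difference is day 14 against day 2.

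The single aged library of stroke day 14, in no comparison for want of a replicate, lay above both aged shams, with more than 3 counts, in 6 values of the members. Its Csf1 was 109 CPM in endothelial cells, 431 CPM in granulocytes and 227 CPM in microglia. Its Csf2ra was 149 CPM in microglia, its Csf2rb 173 CPM in monocyte-derived cells and its Csf3r 690.1 CPM in granulocytes. It also lay above both shams, on fewer counts, for Csf1r in granulocytes (169 CPM, shams 83.3 and 111 CPM), Csf1 in monocyte-derived cells (11.1 CPM, both shams listed at 0), Csf2ra in endothelial cells (14.7 CPM, shams 0 and 1.58 CPM) and Csf2rb in T cells (1.97 CPM, both shams listed at 0). It lay below both shams for Csf1r in microglia (1141 CPM, shams 1923 and 2022 CPM), for Csf2ra and Csf2rb in granulocytes (341 CPM, shams 356 and 393 CPM, and 259 CPM, shams 273 and 286 CPM) and for Csf3r in monocyte-derived cells (20.9 CPM, shams 34.9 and 81.5 CPM). In its 345 T cells Csf1, Csf1r, Csf2ra and Csf3r were listed at 0, below both shams, where 3 counts would be 16.8 CPM. Its granulocyte values rest on 21 cells.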

How the results depend on the processing

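Csf1 in microglia at day 14 against sham and against day 2, Csf2ra in microglia at day 14 against sham, Csf1 in brain granulocytes at both times against sham and Csf1 in granulocytes against neutrophils were called in every leave-one-out fit and every other setting run. The 3 granulocyte results have no value for cells of at least 500 counts, and that at day 2 has none for only the compared groups. Their leave-one-out ranges were 3.88 to 4.56, 2.23 to 2.88, 1.12 to 1.39, 2.98 to 4.18, 4.45 to 5.54 and 2.27 to 3.34 in that order.

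Calls that changed were as follows; where no value shows a cause, the cause was not tested. For Csf1r in microglia at day 2, DESeq2 (-1.46) and no TMM (-1.38) made the call, and leave-one-out values ran from -1.47 to -0.89. Csf2ra in microglia at day 2 lost its call with DESeq2 (0.41), without TMM (0.47), with no filter on low counts (0.63), with fractions rounded up (0.55) and with the replicate block (0.65), with a leave-one-out range of 0.48 to 0.79. Csf3r at day 2 lost it with cells of at least 500 counts (-1.06), with a range of -1.38 to -0.73, and Csf1 at day 2 ranged from 1.38 to 2.01. Csf1 in monocyte-derived cells at day 14 against day 2 lost it in a fit of only those groups (3.92), and its range was 3.45 to 5.28. Neutrophil Csf2rb lost it without TMM (-0.58 against sham, -0.53 against day 2) and with at least 500 counts (-0.89 and -0.82), with ranges of -1.09 to -0.81 and -0.96 to -0.74. Neutrophil Csf1 lost it with at least 500 counts (1.77 and 1.30), and against day 2 ranged from 1.37 to 2.20. Csf1r in monocyte-derived cells against blood monocytes lost it with no filter (-0.72), rounding up (-0.56) and at least 500 counts (-0.74), and ranged from -1.06 to -0.62.

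Values that were not called changed sign in some settings. Csf1 in monocyte-derived cells at day 2 against sham became 0.0155 with no filter and 0.63 with rounding up, and ranged from -1.67 to 0.45 with 1 library left out. The aged minus young difference of Csf2ra became 0.0563 with DESeq2, 0.12 without TMM and 0.10 with rounding up, and that of Csf1 became -0.0012 with at least 500 counts. Their leave-one-out ranges were -0.31 to 0.23 and -0.41 to 1.24, and that of Csf3r -0.37 to 0.28. Leave-one-out ranges also crossed 0 for Csf3r in microglia at day 14 against sham (-0.29 to 0.26), for endothelial Csf1 in its 3 comparisons (-0.19 to 0.15, -0.20 to 0.46 and -0.12 to 0.55) and for neutrophil Csf2rb at day 2 (-0.24 to 0.0438). Of 69 other fold changes of the members, 42 changed sign under at least 1 alternative and 1 was called under 1 alternative.

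Replicate numbers were not taken to pair the libraries. In microglia the correlation of same-numbered deviations ran from -0.29 to 0.55, with 5 of 12 over 0.1. It ran from -0.08 to 0.76 in monocyte-derived brain cells and from -0.14 to 0.74 in brain dendritic cells. Both types also had 5 of 12 over 0.1. Whether same-numbered libraries share a batch was not tested. With the replicate block Csf2ra in microglia at day 2 was 0.65 (adjusted p = 0.0741) and lost its call, while the other 17 called or leading values kept their side of the threshold. Csf1 in monocyte-derived cells at day 14 against sham was called with the block (4.06), with rounding up (3.85), in a fit of only those groups (3.48) and without day 2 replicate 2 (3.61). Csf1 in aged microglia was called with no filter on low counts (1.80).

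Scaling moved the direction of calls over all genes. Without TMM the share of calls that were higher went from 49.9% to 37.5%, 69.4% to 19.6% and 50.1% to 17.5% in the 3 microglial comparisons. It went from 84.3% to 50.7% and 81.7% to 50.1% in monocyte-derived cells against sham, from 66.3% to 82.1%, 49.8% to 76.2% and 42.9% to 66.1% in granulocytes, and from 36.5% to 74.7% and 29.7% to 69.7% in neutrophils at day 14. In endothelial cells it went from 51.7% to 39.3% and from 45.3% to 62.4%, and in monocyte-derived cells against monocytes from 54.1% to 36.7%. Calls over all genes in microglia ranged over the settings from 2094 to 3552 at day 2, 791 to 3425 at day 14 and 276 to 1157 between the times. Depth limits low values in small sums such as the 58 microglia of day 2 replicate 3, where 3 counts are 114 CPM.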

Other observations

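The ligands of the granulocyte-macrophage and granulocyte receptors were rare in the brain sort, and each level rests on few counts. Csf2, the ligand of Csf2ra and Csf2rb, was found in brain T cells and otherwise with 1.65 counts in young microglia at day 14. It was at 0 and 313 CPM in the aged shams (25.0 counts together), at 57.8 to 144 CPM in aged stroke at day 2 (15 counts) and at 67.0 CPM in the aged day 14 library. In young T cells it was at 0 to 23.0 CPM at day 14 and listed at 0 in sham and at day 2, where 3 counts over the group would be 31.2 and 20.4 CPM. Csf3, the ligand of Csf3r, was found in monocyte-derived brain cells at stroke day 2, at 1.79 to 3.28 CPM in young mice (22.0 counts) and 2.72 to 16.1 CPM in aged mice (21.2 counts). It was listed at 0 in young mice at day 14, where 3 counts would be 0.737 CPM, and in young shams, where they would be 13.1 CPM. Endothelial cells held 11.7 counts of Csf3 at day 2 in young mice (0 to 13.5 CPM) and 7 counts in aged mice, all in 1 of 3 libraries. No test was run on these genes.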
